A study of Mus musculus with 4 samples.

Results

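The genes described here are 42 cell cycle and proliferation genes. They were measured in ureters of mouse embryos with a conditional knockout (cKO) of the ΔN form of p63, and in control ureters. The genes were chosen by symbol, and each is represented by its brightest probe over both channels and all 4 arrays, whatever its ratio. All 42 had a probe, out of 29924 genes and other features on the array, and all 42 passed the filter on dim probes, as did 21455 features in all. E15.5 embryos of the NMRI strain were compared. Those called cKO carried Pax2-cre/+ and were Trp63(dN-flox/dN-flox), and those called control were Trp63(dN-flox/?), with no cre listed. Both groups thus carry a floxed ΔN allele of Trp63, and the second control allele is not specified. Loss of ΔNp63 and an effect of cre itself cannot be told apart. Each of the 4 arrays paired a cKO with a sex-matched control RNA, from females in replicates 1 and 2 and from males in replicates 3 and 4. The red dye marked cKO RNA in replicates 1 and 3, and the green dye marked it in replicates 2 and 4. The question put to these genes is whether loss of p63 changed proliferation transcripts.

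Cells divide by copying their DNA and then separating the copies. D-type and E-type cyclins with their kinases take a cell out of G1, and E2F factors then switch on replication genes. A later wave of genes builds the mitotic spindle. It is driven in part by FOXM1 and B-MYB through CHR elements, in promoters that often also hold CCAAT boxes. The transcription factor p63 marks basal cells of layered epithelia, where it is known for its part in keeping progenitor cells dividing. The ureter holds an epithelium that becomes urothelium and a mesenchyme that forms smooth muscle, and both divide in the embryo. RNA of a whole ureter mixes these tissues, and fewer cells of a type and less RNA per cell cannot be told apart.

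Promoters of 4 members are shown because they carry the letters that mark the replication and the mitotic wave. They are the 250 bases before the annotated start, from RefSeq with build GRCm38.p6. Mki67 lies at chr7:135716380-135716629, Top2a at chr11:99024190-99024439, Cdc20 at chr4:118437344-118437593 and Mcm6 at chr1:128359706-128359955, all on the minus strand. Capitals mark the searched letters on either strand, which are TTTGAA or TTCGAA for CHR, CCAAT for the CCAAT box, and TTTCCCGC or TTTGGCGC for E2F.
Mki67: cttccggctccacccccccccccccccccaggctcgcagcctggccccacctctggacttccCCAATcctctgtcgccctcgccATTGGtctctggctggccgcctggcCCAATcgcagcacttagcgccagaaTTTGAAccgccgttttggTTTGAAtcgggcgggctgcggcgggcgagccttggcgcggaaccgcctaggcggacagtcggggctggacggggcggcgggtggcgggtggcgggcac
Top2a: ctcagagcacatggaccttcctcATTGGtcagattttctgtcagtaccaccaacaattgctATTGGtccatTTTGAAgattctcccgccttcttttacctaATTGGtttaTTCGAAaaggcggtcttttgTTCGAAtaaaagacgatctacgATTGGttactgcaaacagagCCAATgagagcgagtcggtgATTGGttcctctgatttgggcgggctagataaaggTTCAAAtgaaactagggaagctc
Cdc20: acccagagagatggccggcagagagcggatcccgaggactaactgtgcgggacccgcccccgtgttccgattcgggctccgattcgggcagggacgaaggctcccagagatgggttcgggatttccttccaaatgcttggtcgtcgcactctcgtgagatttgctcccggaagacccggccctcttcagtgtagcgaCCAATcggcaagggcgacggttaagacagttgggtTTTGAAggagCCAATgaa
Mcm6: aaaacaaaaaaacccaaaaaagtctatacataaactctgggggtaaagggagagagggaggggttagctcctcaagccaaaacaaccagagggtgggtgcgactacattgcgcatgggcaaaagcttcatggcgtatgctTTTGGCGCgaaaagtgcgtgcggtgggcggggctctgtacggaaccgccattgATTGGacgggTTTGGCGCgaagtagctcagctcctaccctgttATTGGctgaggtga
Of the 42 members, 32 had a promoter, from 250 bases before to 50 after the start, in the RefSeq table. The remaining members were Aurkb, Ccna2, Ccnd1, Ccnd2, Ccne2, Cdc25c, Cdkn1c, Foxm1, Kif20a and Mcm4. CCAAT letters were present in 25 of the 32 (78.1%), against 41.1% of the 27025 genes with a promoter. CHR letters were present in 13 (40.6%, against 21.7%), of which 11 were Mki67, Top2a and 9 mitotic or spindle genes. E2F letters were present in 8 (25.0%, against 1.8%), of which 6 were the licensing genes Cdc6, Cdt1, Mcm3, Mcm5, Mcm6 and Mcm7. A match of letters describes the sequence and is no evidence that a factor binds there.

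The arrays were alike in signal, with channel medians from 382 to 617 and between 71.8% and 77.0% of gene probe spots well above background. Values are log2 ratios of cKO over control, normalised within each array, and probe positions are those of build mm9. Trp63 was lower in cKO on every array, with log2 ratios of -1.39, -1.18, -1.30 and -1.62 in replicates 1 to 4. Its mean of -1.37 ± 0.18 (SD, n = 4) is a 2.59-fold lower level, with an adjusted p of 0.00327 in limma, where p-values were adjusted over all 21455 genes. The probe lies at chr16:25892012-25892071, and its place relative to the loxP sites was not analysed here. Of 10 basal epithelial markers 8 were called lower. Markers of general epithelium (10 of 10), ureteric mesenchyme (9 of 10) and smooth muscle (8 of 8) passed the filter. The labels do not say whether RNAs came from single or pooled embryos, so the p-values measure the spread between these 4 pairs.

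None of the 42 cell cycle genes passed the test. At an adjusted p under 0.05, limma called 0 members, against 257 of all genes (1.2%), and the unadjusted p was under 0.05 for 1 member, Ccnd2, against 8.04% of all genes. Without replicate 4, the unadjusted count was 9, for which the share of all genes was not counted. In that setting Ccnd2 was called, when 1605 of all genes were called. Without replicate 2 Ccnd2 was called as well, when 938 of all genes were called. The members' median log2 ratio was -0.01, beside -0.000254 over all genes, with 16 means above 0 and 26 below. The intervals give the sizes of change in whole-ureter RNA that the data allow under the processing used here. Changes within the epithelium alone were not measured and could be larger. The 95% interval of every one of the 42 lay inside a 1.5-fold change in either direction, as it did for 94.8% of all genes, and the extreme bounds were 0.677-fold (Ccnd2) and 1.42-fold (Mcm4). The median width of these intervals was 0.39 on the log2 scale for the members and 0.41 for all genes. Changes within these intervals are not excluded, and a p that misses the threshold does not show that levels were equal.

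**Figure D1:**
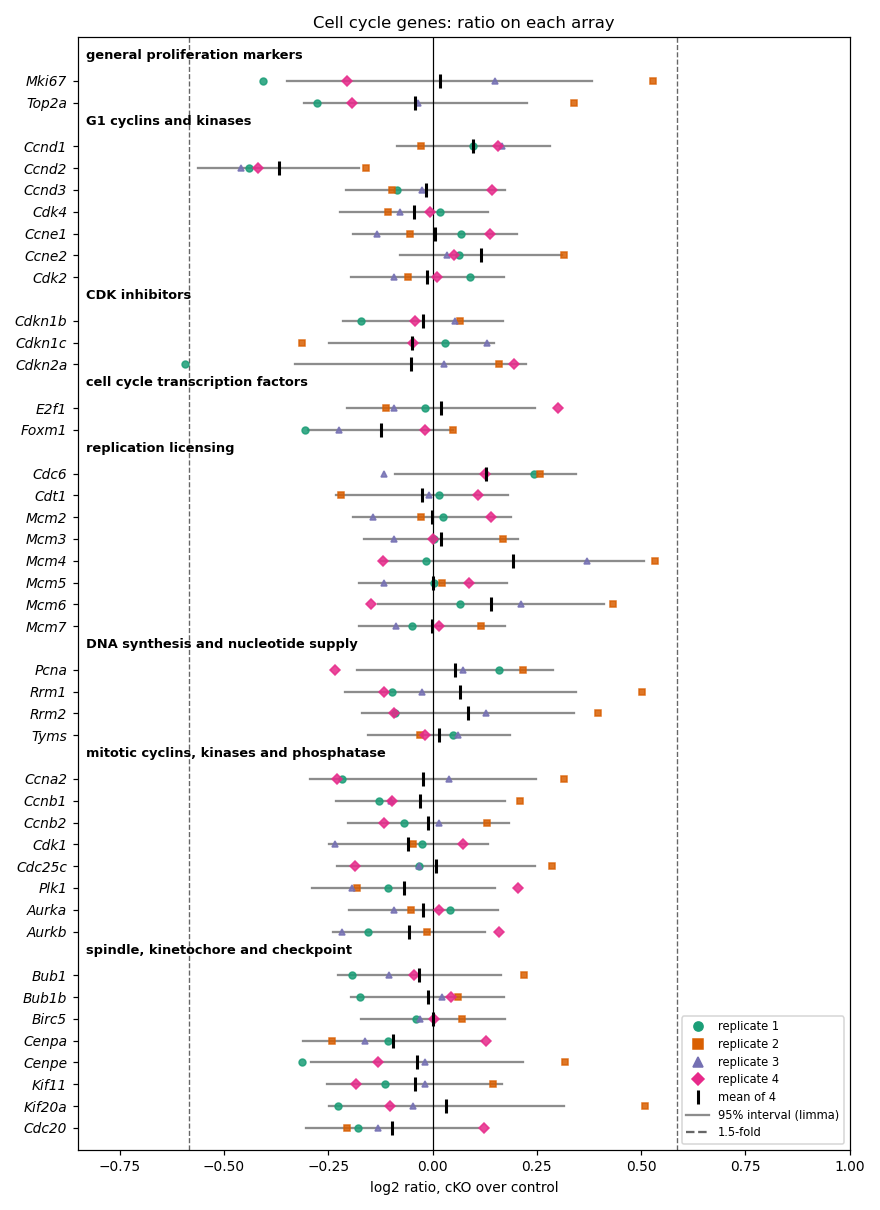
Log2 ratio of cKO over control (x axis) for the 42 members by role (rows), with the 4 replicates as symbols, the mean as a black tick, the 95% interval as a grey line and 1.5-fold as dashed lines. All intervals stay within the dashed lines, and Ccnd2 has the lowest mean, -0.37.

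The G1 cyclins and kinases (7 genes, 0 called) held the member that stood farthest from 0. Ccnd2 encodes cyclin D2, a partner of CDK4 and CDK6 in G1, and its probe lies at chr6:127098696-127098755. Its normalised log2 intensity was 15.36, 15.35, 15.41 and 15.30 in cKO RNAs 1 to 4 and 15.80, 15.51, 15.87 and 15.71 in the control RNAs. Every cKO RNA was below every control RNA, which was the case for no other member and for 6.39% of all genes with groups that did not overlap in either direction. The log2 ratios were -0.44, -0.16, -0.46 and -0.42, with a mean of -0.37 ± 0.14 (SD, n = 4) and a 95% interval from -0.56 to -0.18. The unadjusted p was 0.00337, and the adjusted p of 0.141 in limma missed the threshold. The call depended on single arrays: without replicate 2 the mean was -0.43 with an adjusted p of 0.0109, and without replicate 4 it was -0.30 with 0.0429, while without replicate 1 or 3 the adjusted p was 0.657 or 0.929.

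Summed levels of some cell type marker lists also differed between the groups. The log2 summed level of the 10 basal markers ranged from 15.03 to 15.26 in cKO and from 15.43 to 15.85 in control RNAs. For 8 leukocyte markers (0 called) these ranges were 14.70 to 14.89 and 14.92 to 15.23. Both sums were thus lower in every cKO RNA than in any control RNA. The sums higher in every cKO RNA were those of the 10 general epithelial markers and the 6 nephron markers tested of 9. For the general epithelial markers (Krt18 called higher) the sum ran from 18.93 to 19.02 in cKO and from 18.72 to 18.85 in control RNAs. Of these 10 genes, however, 7 had a mean ratio below 0 and 3 above 0, with a median of -0.10. For the nephron markers (Cubn called higher) the sum ran from 13.81 to 14.27 in cKO and from 13.40 to 13.80 in control RNAs. The nephron ranges thus nearly met. For 8 skeletal muscle markers (Myl1 called lower) the ranges, 15.00 to 15.34 in cKO and 15.33 to 15.55 in control RNAs, met at their ends. Ranges of the remaining marker lists overlapped, though some of their genes were called. Among 6 superficial urothelial markers, Krt20 was called higher (mean log2 ratio 1.92) and Upk2 lower (-0.54). Among 8 smooth muscle markers, Ckm was called lower (-0.71), while 5 of the 8 had a mean above 0 and the list median was 0.02. The part of these cells in the Ccnd2 difference was not tested. The same sum over the 42 members ranged from 20.51 to 20.58 in cKO and from 20.50 to 20.58 in control RNAs, so the groups overlapped.

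The remaining D-type cyclins had means closer to 0. Ccnd1 (cyclin D1) had log2 ratios of 0.10, -0.03, 0.17 and 0.16, with a mean of 0.10 ± 0.09 and an interval from -0.09 to 0.28. Ccnd3 (cyclin D3) averaged -0.02 ± 0.11, and Cdk4, the kinase of the D-type cyclins, -0.04 ± 0.06. The interval of Ccnd1 lay above that of Ccnd2, and that of Ccnd3, from -0.21 to 0.17, overlapped it. The differences between these genes were not tested. Of the E-type cyclins, which start S phase with CDK2, Ccne2 was above 0 on all 4 arrays, with ratios of 0.06, 0.32, 0.03 and 0.05 and a mean of 0.12 (adjusted p 0.991 in limma). Ccne1 averaged 0.01 ± 0.12 and Cdk2 -0.01 ± 0.08. Ccnd2 and Ccne2 were the 2 members with the same sign on all 4 arrays, as had 15.3% of all genes.

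**Figure D2:**
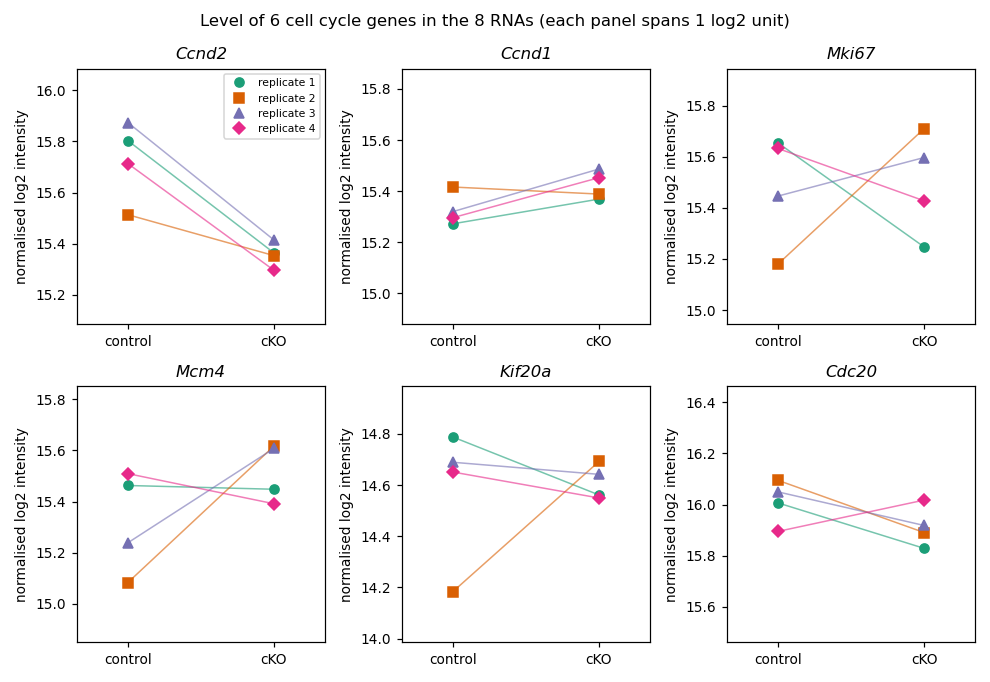
Normalised log2 intensity (y axis) of 6 members in the control and cKO RNA of each array, with the RNAs of an array joined by a line and each panel spanning 1 log2 unit. The 4 cKO points of Ccnd2 lie below its 4 control points, while the groups overlap for the remaining 5 genes and the lines of Mki67 cross.

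The CDK inhibitors, which hold cells out of the cycle, were also not called (0 of 3). Cdkn1b (p27) averaged -0.02 ± 0.11, with ratios from -0.17 to 0.07. Cdkn1c (p57) averaged -0.05 ± 0.19 and was lowest in replicate 2, at -0.31. Cdkn2a, the locus of p16 and p19ARF, was near the limit of detection, well above background on 4 arrays in cKO RNA and on 3 in control RNA. Its ratios were -0.59, 0.16, 0.03 and 0.20, so replicate 1 alone was below 0, and the mean was -0.05 ± 0.37. Both transcription factors stayed under the threshold. E2f1, which activates replication genes, averaged 0.02 ± 0.19, with a ratio of 0.30 in replicate 4 and ratios below 0 on the remaining arrays. Foxm1, an activator of mitotic genes, had log2 levels of 12.29, 12.49, 12.43 and 12.35 in cKO and 12.59, 12.44, 12.65 and 12.37 in control RNAs. The groups overlapped, and the mean ratio of -0.12 ± 0.17 had an interval from -0.30 to 0.05 (adjusted p 0.894 in limma), the second lowest mean of the members.

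The 8 replication licensing genes encode subunits of the MCM helicase or proteins that load it onto origins. These genes held the 3 highest means, and none was called. Mcm4 had log2 levels of 15.45, 15.62, 15.61 and 15.39 in cKO and 15.46, 15.08, 15.24 and 15.51 in control RNAs. The cKO RNA was above its control partner in replicates 2 and 3 only, and the mean ratio was 0.19 ± 0.31 with an interval from -0.12 to 0.51 (adjusted p 0.981 in limma). Mcm6 had a similar course, with ratios of 0.06, 0.43, 0.21 and -0.15 and a mean of 0.14 ± 0.24. Cdc6, which with CDT1 recruits the helicase, had ratios of 0.24, 0.26, -0.12 and 0.13 and a mean of 0.13 ± 0.17. A second Cdc6 probe was above 0 on all arrays, at 0.35, 0.38, 0.16 and 0.04, with an unadjusted p of 0.043 and an adjusted p of 0.628 in limma over 28611 probes. The helicase subunits did not share one direction, since Mcm2, Mcm3, Mcm5 and Mcm7 had means from -0.00179 (Mcm7) to 0.02 (Mcm3), and Cdt1 averaged -0.03 ± 0.14. Mcm5, whose promoter holds E2F letters as that of Mcm6 does, had ratios between -0.12 and 0.09.

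The 4 genes of DNA synthesis and nucleotide supply all had means slightly above 0, and none was called. Pcna, the sliding clamp of the replication polymerases, averaged 0.05 ± 0.20 and was positive except in replicate 4, at -0.23. Rrm1 and Rrm2 encode the subunits of ribonucleotide reductase and averaged 0.07 ± 0.29 and 0.09 ± 0.23. For both, replicate 2 was highest, at 0.50 and 0.40, and replicates 1 and 4 were below 0. Tyms, thymidylate synthase, had one of the smallest spreads, at 0.02 ± 0.05.

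Mitotic genes gave no call either. Of the 8 mitotic cyclins, kinases and phosphatase, 0 were called and the median was -0.03. Ccna2 (cyclin A2) had ratios of -0.22, 0.32, 0.04 and -0.23 and a mean of -0.02 ± 0.26, while Ccnb1 and Ccnb2 (B-type cyclins) averaged -0.03 ± 0.16 and -0.01 ± 0.11. Cdk1, their kinase, averaged -0.06 ± 0.13, and the phosphatase gene Cdc25c, whose product activates CDK1, averaged 0.01 ± 0.20. The mitotic kinases Plk1, Aurka and Aurkb averaged -0.07 ± 0.19, -0.02 ± 0.06 and -0.06 ± 0.17. Plk1 and Aurkb were above 0 in replicate 4 only, at 0.20 and 0.16.

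Of the 8 spindle, kinetochore and checkpoint genes, 0 were called and the median was again -0.03. Cdc20, an activator of the anaphase-promoting complex, had log2 levels of 15.83, 15.89, 15.92 and 16.02 in cKO and 16.01, 16.09, 16.05 and 15.89 in control RNAs. It was lower in cKO in replicates 1 to 3 and higher in replicate 4, and the mean of -0.10 ± 0.15 had an interval from -0.30 to 0.11. Cenpa, the centromeric histone H3 variant, had the same signs, with a mean of -0.10 ± 0.16. The checkpoint kinase genes Bub1 and Bub1b averaged -0.03 ± 0.18 and -0.01 ± 0.11, and Birc5 (survivin, of the chromosomal passenger complex) 0.00 ± 0.05. Among the motor proteins, Cenpe, Kif11 and Kif20a averaged -0.04 ± 0.27, -0.04 ± 0.14 and 0.03 ± 0.33. Kif20a ranged from -0.23 in replicate 1 to 0.51 in replicate 2, and its lowest level of the 8 RNAs, 14.18, was that of control RNA 2.

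Of the 42 members, Mki67 varied most from array to array. Mki67, which encodes the nuclear antigen Ki-67 of cycling cells (probe at chr7:142881591-142881650), had log2 levels of 15.25, 15.71, 15.60 and 15.43 in cKO and 15.65, 15.18, 15.45 and 15.63 in control RNAs. The highest and the lowest of the 8 values came from the same array, replicate 2. The ratios were thus -0.41, 0.53, 0.15 and -0.20, with a mean of 0.02 ± 0.41 (SD, n = 4) and an interval from -0.35 to 0.38, the widest of the members. A second Mki67 probe gave -0.47, 0.51, 0.08 and -0.23, so the spread between arrays recurred on a separate probe of the same RNAs. Top2a, a topoisomerase of S phase and mitosis, had ratios of -0.28, 0.34, -0.03 and -0.19 and a mean of -0.04 ± 0.27.

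Replicate 2 also stood high for many other members. The ratio of replicate 2 was the highest of the 4 arrays for 24 of 42 members (57.1%), compared with 31.8% of all genes, and the members' medians in replicates 1 to 4 were -0.06, 0.07, -0.03 and -0.00251. Control RNA 2 was the lowest of the controls for 20 members (47.6%, against 33.8% of all genes), and cKO RNA 2 was the highest of the cKO RNAs for 20 (47.6%, against 20.9%). Control RNA 2 was, however, the highest of the controls for 11 members (26.2%, against 33.4% of all genes). Among the 131 other cell cycle genes, control RNA 2 was the lowest control for 73, beside the 33.8% of all genes. Among the same 131 genes, cKO RNA 2 was the highest cKO RNA for 31, beside 20.9% of all genes. For cKO RNA 3 and cKO RNA 4 this count was 39 each, beside 25.1% and 34.2% of all genes. Across the 42 members, ratios of replicate 2 correlated with those of replicate 3 at a Pearson r of 0.49 and with those of replicate 4 at -0.51, beside 0.62 and -0.06 over all genes. These are correlations across genes, which share the arrays and are not independent. On some arrays, ratios also varied with the share of G and C bases in the probe. In replicates 1 to 4 Spearman's rho was 0.01, -0.25, -0.21 and 0.26 over all genes, and -0.35, -0.06, 0.06 and -0.19 over the members. The part of probe composition in the correlations between arrays was not tested. Among 53 other mitosis genes the medians in replicates 1 to 4 were -0.10, 0.12, -0.05 and -0.04, and the ratio was above 0 for 39 of them in replicate 2 and for 6 in replicate 1. The 43 other replication genes did not show this contrast, with 25 above 0 in replicate 2 and 28 in replicate 1. Of all 21455 genes, 10512 were above 0 in replicate 2 and 10400 in replicate 1.

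**Figure D3:**
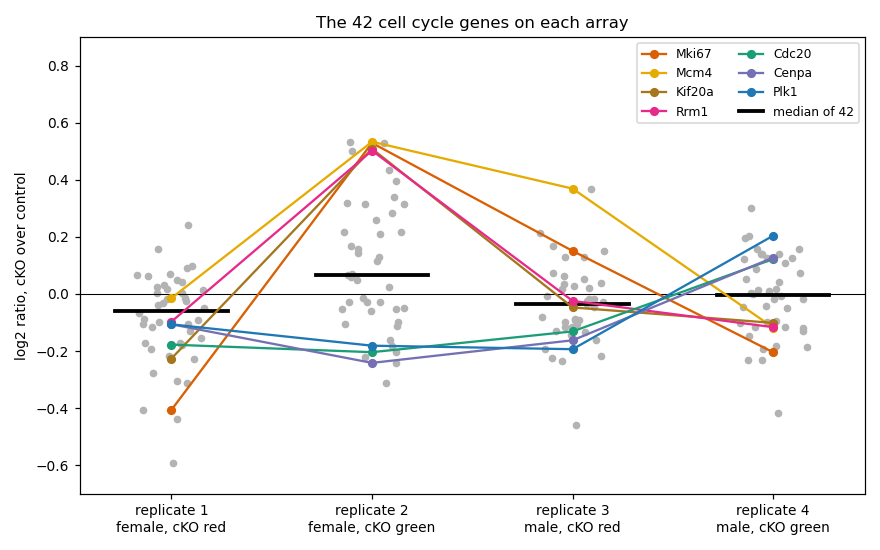
Log2 ratio of cKO over control (y axis) of the 42 members on each of the 4 arrays (x axis, with sex and the channel of the cKO RNA), as grey points with the median as a black bar and 7 members as joined lines. Mki67, Mcm4, Kif20a and Rrm1 reach 0.50 to 0.53 in replicate 2, whereas Cdc20, Cenpa and Plk1 are below 0 there and above 0 in replicate 4.

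Neither sex nor dye gave a call among the members. For the difference of the cKO effect between female and male pairs, limma called 0 members and 0 had an unadjusted p under 0.05, against 0.0699% and 0.942% of all genes. The dye effect was called for 0 members and 0 had an unadjusted p under 0.05, against 0% and 1.99% of all genes. With 2 arrays per sex and per dye orientation these tests rest on few arrays. The sex with the higher ratio also varied by gene, from a female minus male difference of -0.33 for Cdkn2a to 0.27 for Rrm1.

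Further probes of the same genes gave like values. Of the 42 members, 12 had over 1 probe, with 17 further probes of which 16 passed the filter. No further probe was called, 11 of the 16 had the sign of the brighter probe, and the largest gap was that of a dim Cdk1 probe, 0.15 above the brightest. The 4 Cdk4 probes averaged -0.02 to -0.05.

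Cell cycle genes outside the 42 were also not called. Lists of 43 other replication genes, 53 other mitosis genes and 35 other cell cycle regulators were taken from the same fit. Of these 131 genes limma called 0, beside 1.2% of all genes. All 131 intervals lay inside 1.5-fold, beside 94.8% of all genes. The list medians were -0.01, -0.02 and -0.01. Among the replication genes, means ran from -0.09 (Rfc2, a clamp loader subunit) to 0.18 (Rpa1, which binds single-stranded DNA). Among the mitosis genes, they ran from -0.15 (Espl1, separase) to 0.09 (Tpx2, an activator of Aurora A). The regulators spread most, from Cdkn2b (the CDK inhibitor p15), with ratios of -0.41, -0.03, -0.41 and -0.12 and a mean of -0.24, to E2f3, with a mean of 0.23. Of the 131, only Cdkn2b had an unadjusted p under 0.05 in limma, at 0.014, beside 8.04% of all genes. Its adjusted p in limma was 0.331. Without replicate 4, 2 of the 131 were called, Cdkn1a (the CDK inhibitor p21) and E2f3, when 1605 of all 21455 genes were called.

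**Figure D4:**
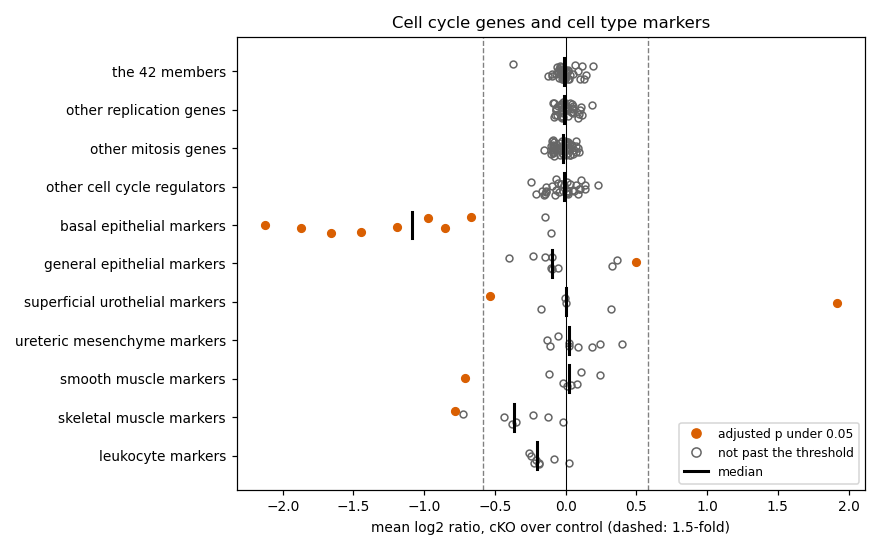
Mean log2 ratio of cKO over control (x axis) for each gene of the 42 members, of 3 lists of other cell cycle genes and of 7 cell type marker lists (rows), with called genes filled, the median as a black bar and 1.5-fold as dashed lines. No cell cycle gene is filled, whereas 8 of 10 basal epithelial markers are filled and lie below 0.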

How the data were processed

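The deposited files give, for each spot and channel, the mean signal intensity and the median local background from Agilent Feature Extraction 10.7.3.1, per the submitters' processing notes. They also hold, as deposited, other values such as flags for nonuniform spots and for spots well above background. Labelling used 200 ng of RNA and 1 amplification round, per the labels' protocols. The deposited value table holds log2 ratios, already turned to cKO over control. Here, background was corrected with normexp (offset 50), ratios were normalised by loess, and each probe's spots were averaged. The filter kept probes whose spots were well above background, for a share of 0.5 or more, on all 4 arrays in cKO RNA or on all 4 in control RNA. The fit used limma 3.58.1 under R 4.3.3, with a coefficient for cKO and one for the dye. Its p-values were adjusted by Benjamini-Hochberg over all 21455 genes, with 0.05 as the threshold. The fit was tested on simulated data.

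The members and lists were chosen with earlier results of these data known. The genes described in full are Trp63, members with an unadjusted p under 0.05, and the 3 highest and 3 lowest means. Of the other cell cycle lists, called genes and the highest and lowest mean were named. Exon positions of the probes were not analysed here.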

Additional observations from a re-analysis of the deposited data

Results flagged for a closer look

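In 5 of the 42 members, 1 of the 4 ratios lay far from the nearest of the others by Dixon's test, in 4 cases that of replicate 2. For 4 values drawn alike from a normal distribution, chance gives such a value in about 1 of 20 groups. The same count over all genes was not made. Over all genes, the ratio of replicate 2 was the highest of the 4 arrays for 31.8% and the lowest for 30.5%. In replicate 2, Ccnd2 was at -0.16 (nearest -0.42), Ccne2 at 0.32 (nearest 0.06), Rrm1 at 0.50 (nearest -0.02) and Ccnb1 at 0.21 (nearest -0.10). In replicate 1, Bub1b was at -0.17 (nearest 0.02).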

How the results depend on the processing

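The 12 alternatives were processed signals, median centring, no filter, no dye term, a sex term, 8 unpaired RNAs, the deposited value table, the mean of probes, and each replicate left out. Members called numbered 0 in all but those without replicate 2 or 4, so the range with a replicate left out was 0 to 1 (Ccnd2). Members with an unadjusted p under 0.05 numbered 1 to 9 with a replicate left out. The 9 came without replicate 4, and the share of all genes was not counted there. That count was 2 without the filter and 2 with the deposited table (Ccnd2 and Foxm1 in both). Other cell cycle genes called ranged from 0 to 2 (Cdkn1a and E2f3 without replicate 4, when 1605 of all genes were called). With median centring 1 member was called for a dye effect. In the deposited table Trp63 was at -1.41 with an adjusted p of 0.203 in limma. The cause of these changes was not tested. Ccnd2 stayed between -0.43 and -0.30, with adjusted p from 0.0109 to 0.929 in limma (0.0743 with the RNAs unpaired). At most 16 members changed sign, under median centring and without replicate 2, the largest change of a member was 0.18, and 40 to 42 intervals lay inside 1.5-fold. Those not inside were Ccnd2 and Cdkn2a with processed signals, and Mki67 and Mcm4 with the deposited table. Ccnd2 was also not inside with the sex term and without replicate 1, 2 or 3, and Mcm4 without replicate 1. Over all genes, 257 calls became 86 without the filter, 461 without the dye term, 542 with the sex term, 387 unpaired, 1 with the deposited table and 283 to 1605 with a replicate left out. Leaving out a replicate leaves 1 residual degree of freedom. No paired analysis was possible beyond the one used because each array is itself the pair.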
